A study of Mus musculus with 4 samples.

Results

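The replication-dependent histone genes encode the linker histone H1 and the core histones H2A, H2B, H3 and H4 that package newly made DNA. Members were the non-control probes whose RefSeq gene carries a symbol starting with Hist1h, Hist2h, Hist3h or Hist4h, found through the probe's accession because the scanner files used here list no gene names, and each gene is represented by its brightest probe. RefSeq lists 70 genes with such a symbol, and 46 of them were matched by 52 probes. Of these 46 genes 43 were measured, of 20045 genes measured in all. The other 3, Hist1h1d, Hist1h2bp and Hist1h2bq, were not well above background on any array and have no value here. The measured members were 5 H1, 13 H2A, 9 H2B, 7 H3 and 9 H4 genes.

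The R/R lines carry the Cdk4 R24C and the Cdk6 R31C substitution on both alleles, and the wild-type (WT) lines carry neither. Both kinds of line grew out of fetal liver of a mixed C57BL/6J x CD-1 background after transduction with p185 BCR-ABL1, the fusion tyrosine kinase of acute lymphoblastic leukaemia, so the controls carry the oncogene too, and RNA came from asynchronous cultures. RNA of R/R clones 1, 2 and 3, each a single clone, was labelled with Cy5, and a WT pool labelled with Cy3 was its partner on each array. The 4th array set an R/R pool against WT with the dyes exchanged. The labels do not say which lines the pools held, and the identifiers of clones 1 and 2 share their first number. Every value below is a log2 ratio with R/R on top, the pool array turned to the same direction. All 4 ratios share the WT pool, so they are not independent of one another, and no spread of the WT lines enters any test.

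Replication-dependent histone genes lie in clusters, have no introns, and are transcribed mainly in S phase, when cyclin E and CDK2 act on the coactivator NPAT downstream of the RB and E2F switch that CDK4 and CDK6 control. Their mRNAs usually end in a conserved stem-loop bound by SLBP instead of a poly(A) tail. Some members, HIST2H2BE and HIST1H1C in human cells among them, can also give polyadenylated transcripts, which are known from cells that have left the cell cycle. Per the labels the RNA was copied from a T7 promoter primer, and whether that primer anneals to a poly(A) tail is not stated there. Within each core class the genes are near-identical copies that encode the same or nearly the same protein. No probe sequences were used here, so a value printed under a gene name may hold signal of other members of its class, and the genes of a class cannot be counted as separate readings.

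In the culture as a whole, a different share of cells in S phase and a different amount of histone mRNA per S-phase cell cannot be told apart. Spots that the scanner software marked as well above background made up 42.8% to 53.4% of the R/R channel and 48.2% to 50.3% of the WT channel. The lowest R/R share was that of clone 3; its part in the clone 3 values below was not tested. The median SD over the 3 clones was 0.17 for all genes and 0.56 for the histone genes. None of the 52 probes was saturated or marked as an outlier. All 9 B-lineage markers were detected in R/R and in WT RNA on at least 3 of 4 arrays, and so were 4 of 6 myeloid, 3 of 4 T-cell, 2 of 3 endothelial and 1 of 6 erythroid markers. No hepatocyte marker (0 of 4) or mast cell marker (0 of 3) was detected in either, and 1 of 3 megakaryocyte and 1 of 3 stromal markers were detected in WT RNA alone.

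The members included a large group with higher signal in clone 3 and a small group with lower signal on every array, and others were in neither. In clone 3, 27 of the 43 histone genes were more than 1.5-fold higher than in the WT pool, against 4.65% of all genes. In clone 1 only Hist2h2bb was (background 2.79%), in clone 2 only Hist1h2ag (background 2.68%), and on the pool array 5 members were (background 2.28%). The counts of members more than 1.5-fold lower were 3 in clone 1 (background 3.3%), 4 in clone 2 (background 3.57%), 2 in clone 3 (background 5.81%) and 3 on the pool array (background 2.88%). Hist3h2a and Hist3h2ba, which encode an H2A and an H2B of the small Hist3 cluster, fell in R/R cells. They were the 2 members called at an adjusted p under 0.05 (limma, Benjamini-Hochberg over all genes), where 0.374% of all genes were lower, and no member was called higher (background 0.15%). The plot of all members by array shows both groups.

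**Figure D1:**
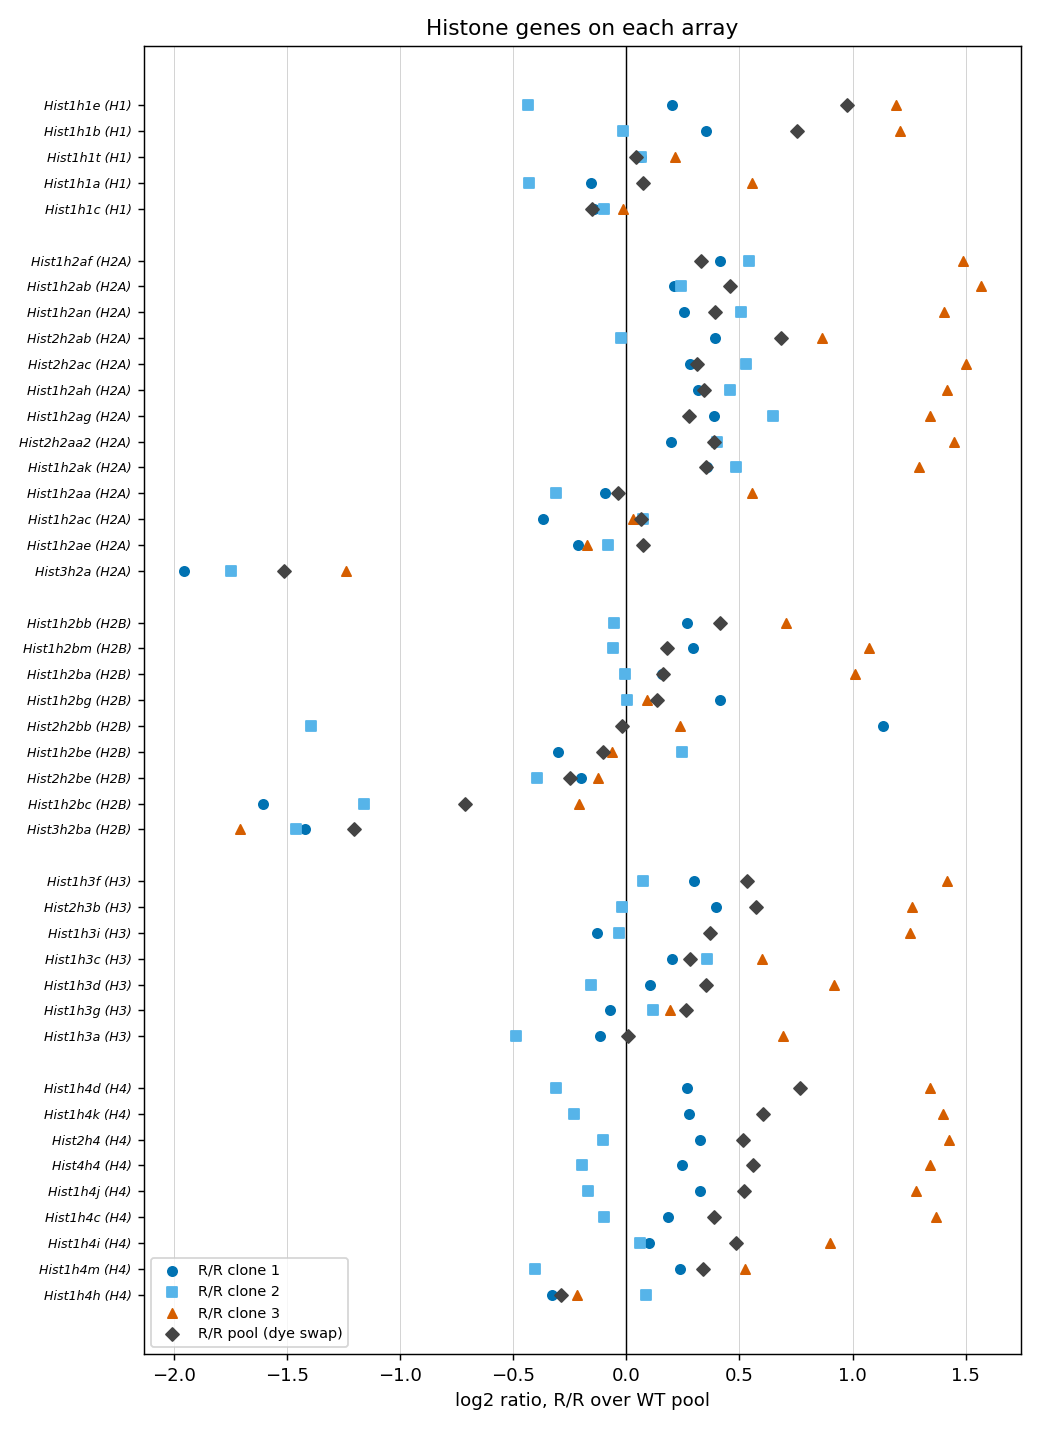
Each row is a histone gene and each point its log2 ratio of R/R over the WT pool on 1 array, with genes sorted by fitted value within classes H1, H2A, H2B, H3 and H4. The clone 3 triangles reach 1.57, to the right of the other arrays for most genes, while the points of Hist3h2a and Hist3h2ba lie at -1.20 or lower on all 4 arrays.

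The promoter sequences of the 2 genes that fell are shown beside those of an H1, an H4 and an H2A gene. These 2 sets were chosen for fitted values of opposite sign, but no gene of the second set was called. Each sequence is RefSeq's 300 bases on build GRCm38.p6, from 250 before to 50 after the annotated start. It reads 5′ to 3′ on the gene's strand. Capitals mark the TATA box motif TATAAA, the CCAAT box and the octamer ATTTGCAT, each searched on both strands; no matches overlapped in these 5 sequences, and the presence of a motif over all promoters is given after them.
Hist3h2ba, chr11:58948661-58948960, plus strand: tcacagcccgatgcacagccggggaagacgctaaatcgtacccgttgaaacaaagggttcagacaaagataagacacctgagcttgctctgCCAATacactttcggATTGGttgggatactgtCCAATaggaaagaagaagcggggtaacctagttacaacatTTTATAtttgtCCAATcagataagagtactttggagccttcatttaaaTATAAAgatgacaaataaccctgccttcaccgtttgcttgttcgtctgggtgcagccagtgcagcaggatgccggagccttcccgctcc
Hist3h2a, chr11:58954435-58954734, plus strand: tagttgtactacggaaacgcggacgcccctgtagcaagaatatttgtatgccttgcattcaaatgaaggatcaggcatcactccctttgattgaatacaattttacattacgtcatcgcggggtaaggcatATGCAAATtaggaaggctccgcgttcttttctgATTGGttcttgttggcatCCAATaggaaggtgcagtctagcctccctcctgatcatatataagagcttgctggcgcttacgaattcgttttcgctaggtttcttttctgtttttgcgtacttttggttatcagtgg
Hist1h1e, chr13:23622509-23622808, minus strand: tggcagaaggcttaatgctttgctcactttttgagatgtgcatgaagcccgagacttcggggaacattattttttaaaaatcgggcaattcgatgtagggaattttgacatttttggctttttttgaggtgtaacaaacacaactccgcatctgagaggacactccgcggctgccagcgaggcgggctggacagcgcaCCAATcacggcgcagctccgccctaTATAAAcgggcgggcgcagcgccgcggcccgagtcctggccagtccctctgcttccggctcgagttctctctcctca
Hist1h4d, chr13:23581318-23581617, plus strand: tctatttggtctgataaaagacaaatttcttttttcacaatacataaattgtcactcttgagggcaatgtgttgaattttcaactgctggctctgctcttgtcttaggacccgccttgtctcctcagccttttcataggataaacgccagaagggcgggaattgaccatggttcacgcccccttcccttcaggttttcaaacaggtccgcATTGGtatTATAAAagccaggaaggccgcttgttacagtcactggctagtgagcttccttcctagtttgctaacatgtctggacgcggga
Hist1h2ag, chr13:22042900-22043199, minus strand: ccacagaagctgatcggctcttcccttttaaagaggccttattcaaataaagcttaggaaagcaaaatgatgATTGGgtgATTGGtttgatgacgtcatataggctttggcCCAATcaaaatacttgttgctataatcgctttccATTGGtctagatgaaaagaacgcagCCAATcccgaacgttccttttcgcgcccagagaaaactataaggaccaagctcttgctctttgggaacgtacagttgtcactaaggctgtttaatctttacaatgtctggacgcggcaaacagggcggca
Hist3h2ba has 4 CCAAT matches, 2 TATAAA matches and no octamer match, and Hist3h2a has 2 CCAAT matches, 1 octamer match and no TATAAA match. Hist1h1e and Hist1h4d have 1 TATAAA and 1 CCAAT match each, and Hist1h2ag has 5 CCAAT matches; none of these 3 has the octamer.

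Promoters were found for 38 of the 43 measured genes. CCAAT was present in 32 of them (84.2%, against 41.1% of all 27025 genes with a promoter), TATAAA in 23 (60.5%, against 15.7%) and the octamer in 13 (34.2%, against 2.0%). The octamer is known as a binding site of OCT1 in H2B promoters. It was present in 6 of 7 H2B and 7 of 13 H2A promoters and in none of the H1, H3 and H4 promoters. CCAAT was present in all 5 H1, 13 H2A, 7 H2B and 5 H3 promoters and in 2 of 8 H4 promoters. Of the genes more than 1.5-fold higher in clone 3, 16 of 24 held TATAAA and 6 of 24 the octamer, and of the other members 7 of 14 held each. Such matches describe these windows and are not shown to be binding sites.

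Hist3h2a (now H2aw) had log2 ratios of -1.96 in clone 1, -1.75 in clone 2, -1.24 in clone 3 and -1.52 on the pool array. All 4 arrays were below 0, with clone 3 the nearest to it. The fitted value was -1.58 ± 0.15 (SE, 3 clones and 1 pool, limma adjusted p = 0.035), a 2.99-fold lower level in R/R cells. Hist3h2ba (now H2bu2) had -1.42, -1.46 and -1.71 in clones 1, 2 and 3 and -1.20 on the pool array. All 4 arrays were below 0. The fitted value was -1.37 ± 0.10 (limma adjusted p = 0.017), a 2.58-fold lower level in R/R cells. Its R/R signal was not well above background in clone 3, so that ratio is only a bound, and it was on the other 3 arrays. Without clone 3 the fitted value was -1.32 ± 0.09 (limma adjusted p = 0.011). These were the 2 of 43 members with every array more than 1.5-fold lower, a pattern found in 0.683% of all genes. The uncorrected spot brightness of Hist3h2a was 107 to 236 for R/R RNA and 330 to 699 for WT RNA over the 4 arrays. For Hist3h2ba it was 54.5 to 108.5 for R/R RNA and 157.5 to 301.5 for WT RNA.

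Both calls depended on the processing. With log ratios of the scanner software's processed intensities neither passed (limma adjusted p of 0.138 for Hist3h2a and 0.078 for Hist3h2ba). The fitted values were further from 0 there, at -2.11 and -2.54. Without clone 2 the Hist3h2a call was lost (adjusted p = 0.063), and with median centring the Hist3h2ba call was lost (adjusted p = 0.065). The 4 measured protein-coding genes nearest to the Hist3 pair in RefSeq order did not share the low values: Rnf187, a ubiquitin ligase gene, had a fitted value of 0.02, Trim11 of -0.05, Zfp39 of 0.06 and Iba57 of -0.12. Guk1, a guanylate kinase gene further along, had 0.23.

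Hist1h2bc (now H2bc4), an H2B gene of the large Hist1 cluster, was the next lowest member and is named here after its values were seen. Its ratio was -1.61 in clone 1, -1.16 in clone 2, -0.21 in clone 3 and -0.71 on the pool array. All 4 arrays were below 0, but the clones spanned 1.40. The fitted value of -0.85 ± 0.26 did not pass (limma adjusted p = 0.230). Without clone 3 it was -1.05 and passed (adjusted p = 0.038), and counting the pool as a further replicate with no dye term it also passed (adjusted p = 0.048). Hist1h2ac, which lies beside it in RefSeq order and encodes an H2A, stood at -0.01 ± 0.12. Besides these 3 genes, Hist2h2be (-0.24 ± 0.10) and the linker histone gene Hist1h1c (-0.12 ± 0.09) were below 0 on all 4 arrays without being called. In all 5 of 43 members were, against 16.2% of all genes, so the count of negative members was not above the background.

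Most H2A genes were alike. Of 13 measured, 9 had fitted values between 0.53 and 0.57, and the same 9 were more than 1.5-fold higher in clone 3, where they ranged from 0.87 to 1.57. The highest fitted value was that of Hist1h2af, with 0.41 in clone 1, 0.54 in clone 2, 1.49 in clone 3 and 0.33 on the pool array. Clone 3 stood well above the other 3 arrays, and all 4 were above 0. Its fitted value of 0.57 ± 0.22 did not pass (limma adjusted p = 0.308), with a 95% interval of 0.02 to 1.13. Hist1h2ah, whose probe gave the brightest signal of the class, had 0.32, 0.46 and 1.42 in clones 1, 2 and 3, 0.34 on the pool array, and a fitted value of 0.54 ± 0.22 (limma adjusted p = 0.340). Hist1h2ab had the highest clone 3 ratio of any member, 1.57. The 4 remaining H2A genes were Hist3h2a, Hist1h2ac, Hist1h2ae at -0.04, and Hist1h2aa, whose product is known from testis, at 0.01. Hist1h2aa, Hist1h2ac and Hist1h2ae had dim probes, with mean log2 intensities of 6.27 to 7.10. So did Hist2h2ab, among the 9 high genes, at 6.66 with WT RNA detected on 3 of 4 arrays. Its fitted value of 0.55 became 1.70 with ratios of the scanner's processed intensities.

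H4 genes encode a common protein, and 7 of 9 were more than 1.5-fold higher in clone 3, between 0.90 and 1.43. Hist1h4d had 0.27 in clone 1, -0.31 in clone 2, 1.34 in clone 3 and 0.77 on the pool array. The arrays took both signs, with clone 2 the lowest. The fitted value of 0.60 ± 0.30 did not pass (limma adjusted p = 0.414), with a 95% interval of -0.16 to 1.36. Hist1h4k, whose probe was the brightest of the class, had 0.28, -0.23 and 1.40 in clones 1, 2 and 3 and 0.60 on the pool array, giving 0.54 ± 0.30 (limma adjusted p = 0.444). Hist4h4, the only measured member of the Hist4 cluster, gave almost the same set, 0.25, -0.20, 1.34 and 0.56. The 2 H4 genes that were not more than 1.5-fold higher in clone 3 were Hist1h4m, at 0.24, -0.40 and 0.52 in the clones and 0.34 on the pool array, and Hist1h4h. Hist1h4h was the only H4 gene with a fitted value below 0, with -0.33, 0.09 and -0.22 in the clones, -0.29 on the pool array and a fitted value of -0.22 ± 0.11 (limma adjusted p = 0.420).

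All 7 H3 genes had fitted values above 0, from 0.02 to 0.57, and 6 of 7 were more than 1.5-fold higher in clone 3. Hist1h3f had 0.30 in clone 1, 0.07 in clone 2, 1.42 in clone 3 and 0.53 on the pool array, with a fitted value of 0.57 ± 0.26 (limma adjusted p = 0.382). All 4 arrays were above 0. Hist1h3d, the brightest probe of the class, had 0.10, -0.16 and 0.92 in the clones and 0.35 on the pool array, giving 0.32 ± 0.21 (limma adjusted p = 0.508). Hist1h3a was the lowest, with -0.12, -0.49 and 0.69 in the clones, 0.01 on the pool array and a fitted value of 0.02 ± 0.23. Hist1h3c differed least between clones among the 6, with 0.20, 0.36 and 0.60.

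Linker histone H1 proteins bind the DNA between nucleosomes, and the genes that encode them were split. Hist1h1e had 0.20 in clone 1, -0.43 in clone 2, 1.19 in clone 3 and 0.98 on the pool array. Its fitted value, 0.65 ± 0.30, was the highest of all members and did not pass (limma adjusted p = 0.372, 95% interval -0.09 to 1.39). Hist1h1b, the brightest H1 probe, had 0.35, -0.01 and 1.21 in the clones, 0.75 on the pool array and a fitted value of 0.63 ± 0.23 (limma adjusted p = 0.293). Hist1h1a was at 0.03 ± 0.20, the testis gene Hist1h1t at 0.08 ± 0.09 and Hist1h1c at -0.12 ± 0.09. For these last 2 genes the 3 clones lay within 0.15 of each other.

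H2B genes were scattered, with fitted values from -1.37 to 0.36. Only 3 of 9, Hist1h2bb, Hist1h2bm and Hist1h2ba, were more than 1.5-fold higher in clone 3. The probes of Hist1h2bb, Hist1h2be, Hist1h2bg, Hist1h2bc, Hist2h2be and Hist3h2ba were dim, with mean log2 intensities of 6.42 to 7.64. The offset of 50 added to each intensity draws the ratios of dim probes toward 0. With ratios of the scanner's processed intensities, made without it, Hist1h2bb was at 0.71 and Hist1h2bc at -1.41. Hist1h2bb had the highest fitted value of the class, 0.36 ± 0.16 (limma adjusted p = 0.357), from 0.27, -0.05 and 0.71 in the clones and 0.41 on the pool array. Hist1h2bm, the brightest H2B probe, had 0.30, -0.06, 1.07 and 0.18, giving 0.31 ± 0.22 (limma adjusted p = 0.533). Hist2h2bb had the widest spread over the clones of any member. It stood at 1.14 in clone 1, -1.40 in clone 2, 0.24 in clone 3 and -0.02 on the pool array. The clones thus spanned 2.53 and the fitted value was -0.01 ± 0.45. Its neighbour Hist2h3b, an H3 gene, did not share this, at 0.39, -0.02 and 1.26 in clones 1, 2 and 3 and 0.58 on the pool array.

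**Figure D2:**
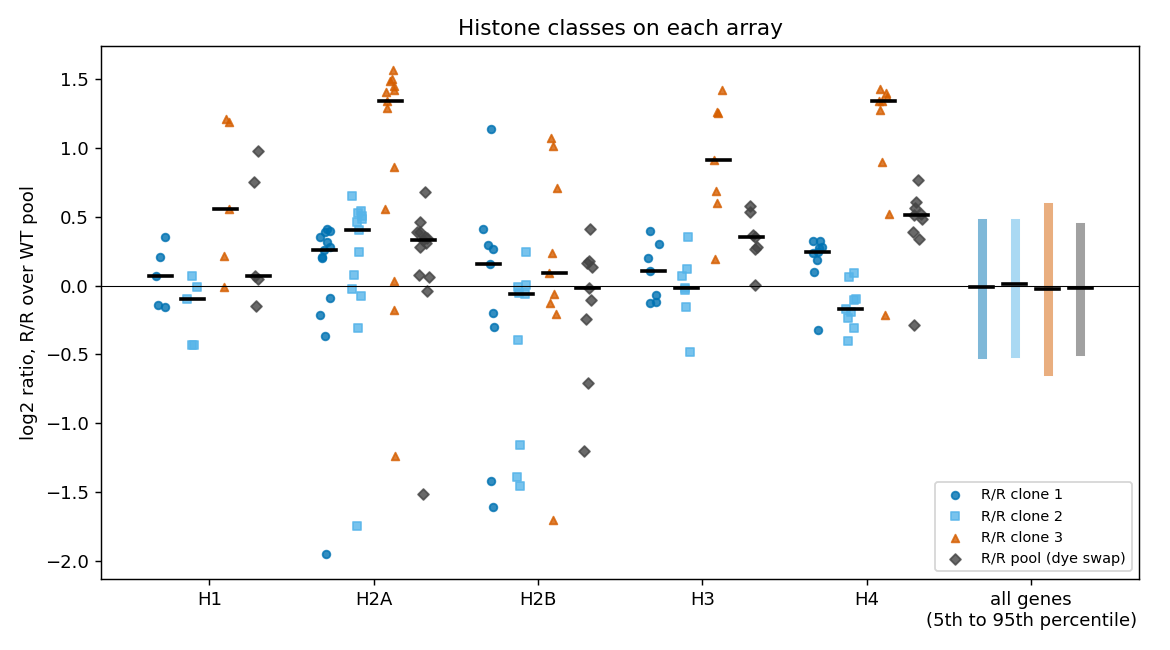
Points are histone genes, split by class and array, on a vertical axis of log2 ratio of R/R over the WT pool; black lines are medians, and the bars at the right span the 5th to 95th percentile of all 20045 genes. The clone 3 medians of H2A and H4 are both 1.34, while the H2B median of clone 3 is 0.09.

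Set side by side, the class medians differed between clones as well as within them. In clone 3 the median was 0.56 for H1, 1.34 for H2A, 0.09 for H2B, 0.92 for H3 and 1.34 for H4, and -0.02 for all genes. In clone 1 it was 0.07, 0.26, 0.16, 0.10 and 0.25 in the same order of classes. In clone 2 H2A stood apart, with a median of 0.40, against -0.10 for H1, -0.06 for H2B, -0.02 for H3 and -0.17 for H4. Of the 9 H2A genes that were high in clone 3, 8 were above 0 in clone 2, up to 0.65, whereas of the 7 such H4 genes 1 was. On the pool array the medians were 0.07, 0.33, -0.02, 0.35 and 0.52 in the order H1 to H4, but with median centring in place of loess all 5 were below 0, as was the median of all genes there (-0.42). That centring kept clone 3 highest of the clones for H1, H2A, H3 and H4, at 0.97, 2.18, 1.51 and 1.79. Clone differences and class differences had no test, since each clone was on 1 array and copies of a class may share signal. The classes also differed in brightness: the brightest probe had a mean log2 intensity of 16.85 in H2A and 11.56 in H2B. The part of brightness in the class medians was not tested. With ratios of the scanner's processed intensities, made without the offset of 50, the clone 3 medians were 1.39 for H2A and 0.11 for H2B.

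Over all 43 members the fitted median was 0.36, against -0.02 for all genes, and 33 members were above 0. By array, 29 members were above 0 in clone 1, 17 in clone 2, 35 in clone 3 and 34 on the pool array, against 48.4%, 52.2%, 46.6% and 46.2% of all genes. Clone 3 was the highest of the 3 clones for 36 of 43 members, against 33.5% of all genes, and exceeded both other clones by more than 1.5-fold for 27, against 2.62% of all genes. On all 4 arrays 13 members were above 0, against 14.6% of all genes. Without clone 3 the fitted median was 0.21, and without clone 2 it was 0.45. At an unadjusted p under 0.05, 6 members were higher (background 7.27%) and 3 were lower (background 8.1%). By cluster, the median was 0.33 for 33 Hist1 genes, 0.53 for 7 Hist2 genes and -1.47 for the 2 Hist3 genes, as the plot in RefSeq order shows.

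**Figure D3:**
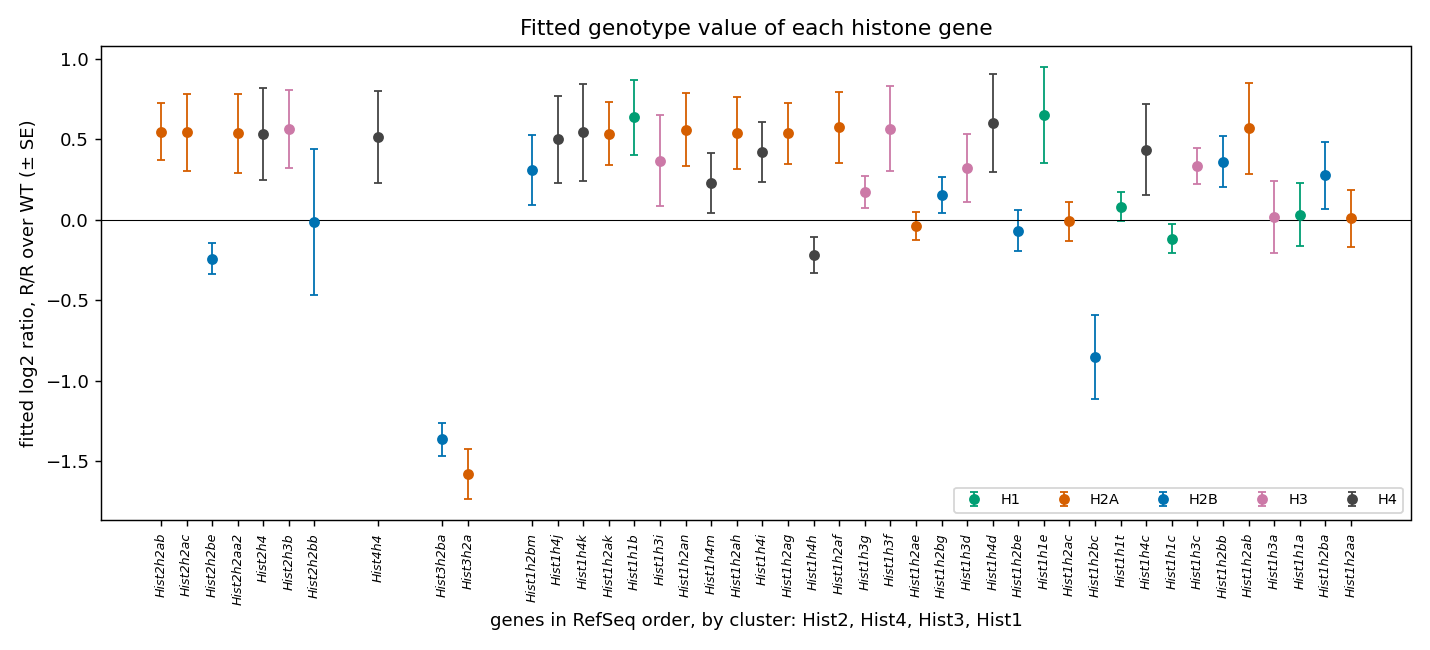
Fitted log2 ratio of R/R over WT (vertical axis, bars are SE of the limma fit) for the 43 histone genes, in RefSeq order along the Hist2, Hist4, Hist3 and Hist1 clusters, coloured by class. Most genes of the Hist1 and Hist2 clusters lie above 0, and the lowest values are those of Hist3h2a, Hist3h2ba and Hist1h2bc.

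A pair of probes was present for 6 genes, and it showed how far a value belongs to a gene. For Hist1h4k the dimmer probe gave 0.23, -0.16 and 1.27 in clones 1, 2 and 3, close to the brighter one. For Hist1h2ak it gave 0.10, 0.16 and 1.33, against 0.36, 0.49 and 1.29. The probes of Hist2h2aa2 were opposite in sign on every array. The brighter one had 0.20, 0.40 and 1.45 in the clones and 0.39 on the pool array, and the dimmer one -0.44, -0.54 and -0.75 in the clones and -0.45 on the pool array. For Hist1h4i the brighter probe gave 0.90 in clone 3 and the dimmer one 0.07, and for Hist2h4 they gave 1.43 and 0.41. The second Hist4h4 probe was not well above background on any array. The files used here do not say which copies or transcript ends each probe detects.

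**Figure D4:**
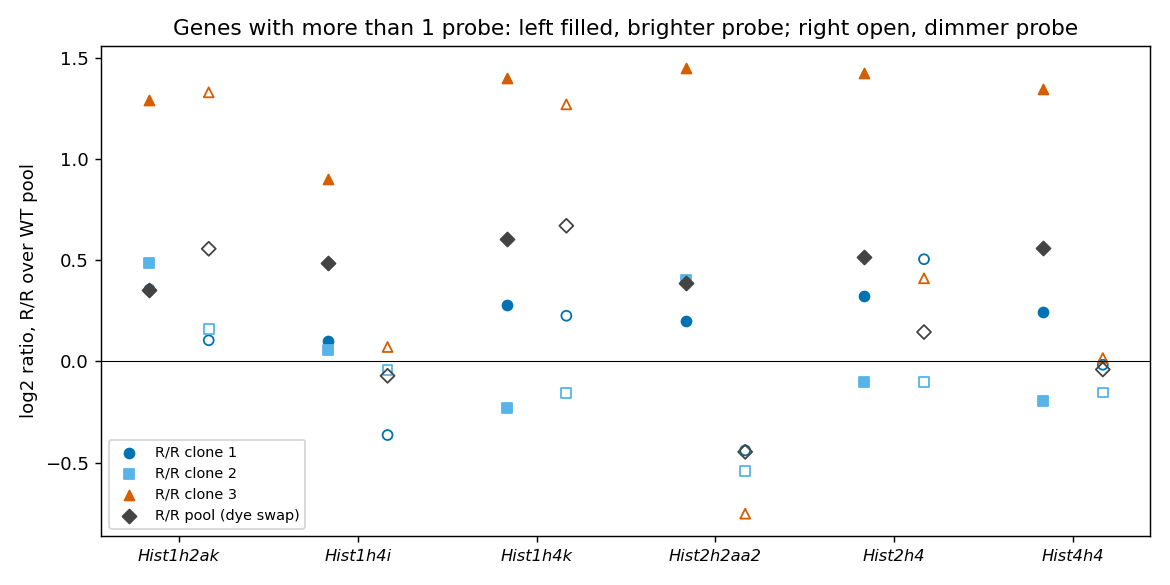
Log2 ratio of R/R over the WT pool (vertical axis) for the 6 histone genes with more than 1 probe, with the brighter probe filled on the left and the dimmer one open on the right. The Hist2h2aa2 probes lie on opposite sides of 0 on all 4 arrays, and the second Hist4h4 probe was not well above background.

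Genes that act on histone mRNA did not show the clone 3 pattern. Of 35 listed genes for histone mRNA transcription and 3′ processing 33 were measured, with a median of 0.10. None was called in either direction, where 0.374% of all genes were lower and 0.15% higher. No gene was more than 1.5-fold higher in clone 3 (background 4.65%). Clone 3 was the highest of the clones for 13 of 33 (background 33.5%). Slbp, which encodes the stem-loop binding protein, had 0.07, 0.23 and 0.33 in clones 1, 2 and 3, 0.37 on the pool array and a fitted value of 0.29 ± 0.10 (limma adjusted p = 0.262). The 3 lowest p-values belonged to the cap-binding gene Ncbp2 at 0.43 ± 0.10, Lsm1, a subunit of the ring that promotes mRNA decay, at 0.35 ± 0.09, and Hinfp, a transcription factor of H4 genes, at -0.31 ± 0.09, with adjusted p of 0.165, 0.185 and 0.216. Npat did not pass the filter on dim probes. Of 23 histone chaperone and assembly genes none was called and none was more than 1.5-fold higher in clone 3 (median 0.05). Chaf1b, a subunit of the chromatin assembly factor CAF-1, stood at 0.35 ± 0.12, Rbbp7 at 0.38 ± 0.13 and Nap1l1 at -0.23 ± 0.10.

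Genes of S-phase entry and DNA replication, which mark the same phase of the cycle, had a clone 3 median of -0.03, and 1 of 33, Gins2 at 0.64, was more than 1.5-fold higher in that clone. None was called. Ccna2, which encodes cyclin A, had 0.43, 0.49 and 0.20 in clones 1, 2 and 3, and Fen1, a flap endonuclease gene, had 0.26, -0.14 and 0.19. Clone 3 was the highest of the clones for neither of these genes, and for 10 of the 33, against 33.5% of all genes. A further list held genes of cell cycle exit together with the D-type cyclin genes Ccnd1, Ccnd2 and Ccnd3, so its counts mix both kinds. Among its 13 measured genes none was called, 9 were below 0 and 4 above it, and the median was -0.15. The lowest was Ccnd1 at -0.91 ± 0.25, and Ccnd2 stood at -0.16 ± 0.09. The antiproliferative gene Btg2 stood at -0.56 ± 0.12 and Cdkn1b at -0.54 ± 0.13. The 4 above 0 were Cdkn2a at 1.39 ± 0.22 (limma adjusted p = 0.086), Cdkn1a at 0.55 ± 0.37, Ccnd3 at 0.54 ± 0.15 and Cdkn2c at 0.31 ± 0.28. In clone 3, Ccnd3 (1.05) and Cdkn2c (0.73) were more than 1.5-fold higher, 2 of 13 genes.

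Histone variant genes that are expressed outside S phase were measured for 12 of 16 listed, with no call and a median of 0.06. The linker variant H1f0, known from cells that stop dividing, stood at -0.54 ± 0.13 (limma adjusted p = 0.165), with its R/R channel well above background on 1 of 4 arrays. H2afy (Macroh2a1) stood at 0.37 ± 0.09 and H2afz (H2az1) at 0.34 ± 0.10, neither called. H2afj, chosen here after its values were seen, had 0.35, 0.59 and 1.48 in clones 1, 2 and 3 and 0.31 on the pool array, within the range of the H2A genes that were high in clone 3. Whether its probe also reads those genes was not tested. Cenpa, the centromeric H3 gene and the other variant more than 1.5-fold higher in clone 3, had 0.40, 0.21 and 0.83 in the clones. H3f3a and H3f3b, which encode the replacement histone H3.3, had -0.11 and -0.15 in clone 3, against 0.92 for the median of the 7 H3 genes.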

How the data were processed

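Per the file headers, Agilent Feature Extraction 11.5.1.1 made the deposited values: uncorrected median intensities of spot and local background, processed intensities corrected for background and dye, and log10 ratios of processed Cy5 over Cy3. The authors' value table has row numbers that match no probe column and was not used.

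Median intensities were corrected with normexp (offset 50) and normalised by loess on each array (limma 3.58.1, R 4.3.3), giving control spots no weight and leaving out outlier spots. Of 55681 probes 27656 had 1 RefSeq gene. A probe was kept if either RNA was detected above background on 3 or more of the 4 arrays, and the brightest probe stood for its gene, leaving 20045 genes. The model had genotype and dye terms, so clones (as a mean) and pool carry equal weight. The pool array alone had the dyes exchanged, so a dye effect and a difference between pool and clones cannot be told apart. That array is fitted exactly. The 2 residual degrees of freedom therefore measure the spread of the 3 clones alone, and the number of arrays, all on 1 slide, limits the precision. Tests were two-sided, adjusted by Benjamini-Hochberg over all genes.

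The members, lists and tests were chosen with earlier results of these data known. The rule for named genes took called members, the highest, lowest and brightest of each class, the 5 whose clones lay farthest apart, and the 3 smallest p of each list; other members were named after their values were seen. Some genes that the rule or the neighbour order takes are not reported here. Background correction, scaling, filters, probe choice, model terms, arrays used and threshold were varied. The fit was tested on simulated data. A gene that did not pass is not shown to be unchanged.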

Additional observations from a re-analysis of the deposited data

How the results depend on the processing

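The count of lower members was 2. It was 0 with ratios of the scanner software's processed intensities (the scanner's ratios), 1 with median centring, and 1 with the strict filter, which leaves out Hist3h2ba. Leaving out a clone gave 1 (without clone 2) to 3 (without clone 3), and 3 were lower with no dye term. The count of higher members was 0 in each of these fits; by 1.5-fold with no p it was 3. Over the 14 alternative fits the adjusted p ran from 0.0013 to 0.138 for Hist3h2a and, in the 13 that kept it, from 0.00081 to 0.078 for Hist3h2ba. With the scanner's ratios these genes were at -2.11 and -2.54, with median centring Hist3h2ba was at -1.44, and without clone 2 Hist3h2a was at -1.56; the cause was not tested. The members' median lay between 0.21 and 0.48. The H2B median ran from -0.065 to 0.19 when a clone was left out. Hist1h3a changed sign with the scanner's ratios (-0.012) and with median centring (-0.028), and ran from -0.15 to 0.15 when a clone was left out. Hist2h2bb changed sign with clones 1 and 2 averaged (0.017) and ran from -0.30 to 0.33 when a clone was left out. With no dye term Btg2, Cdkn1b, Cdkn2a, H1f0, Macroh2a1 and Ncbp2 passed, and without clone 3 Cdkn2a passed. Median centring moved the median of all genes to 0.33, 0.57 and 0.13 in clones 1, 2 and 3 and to -0.42 on the pool array, where the members' medians were 0.78, 0.72, 1.51 and -0.38. More than 1.5-fold higher in clone 3 were 31 of 43 members with median centring, 30 with the scanner's ratios and 26 with scaling between arrays. Of all 20045 genes, 3493, 2213 and 769 were in the same order of settings, against 932 in the main fit, so the background moved too. Each ratio already pairs an R/R sample with WT RNA on the same array. No further pairing was possible because every R/R sample had the same WT pool as its partner and the groups share fewer than 2 replicate numbers. Dim signal limits the ratios of the Hist3 probes and of Hist1h2ae and Hist1h2bg, whose R/R signal was detected on 1 and 2 of 4 arrays. It also limits those of Hist1h1c, Hist1h1t, Hist1h2aa, Hist1h2ac, Hist2h2ab, Hist1h2bb, Hist1h2bc, Hist1h2be and Hist2h2be. Their mean log2 intensities were 6.56 to 7.64, so a value near 0 there is a weak reading.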
